A study of Mus musculus with 8 samples.

Results

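The 10 S100 genes of cultured mouse keratinocytes (KCs) described here were S100a1, S100a4, S100a6, S100a8, S100a9, S100a10, S100a11, S100a13, S100a14 and S100a16. They were found by gene name and are 10 of the 41457 genes listed for each sample. The KCs were prepared from the tail epidermis of adult wild-type C57BL/6 mice, were grown untreated in serum-free medium low in calcium, and were split when nearly confluent. All samples share this origin, and no other genotype, treatment or skin region is part of the comparison. RNA was taken after 1 week of culture (4 samples) or after 3 weeks (4 samples), and poly(A) RNA was sequenced. The submitters describe 4 independent experiments. The paper states that the same batches of KCs were compared after 1 and after 3 weeks. The names of the deposited tables carry a number, read here as that of the cell preparation although the labels do not explain it. By this number, 3 preparations occur at both times, as replicates 1, 3 and 4 at 1 week and replicates 1, 2 and 4 at 3 weeks.

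S100 proteins are small proteins that bind calcium through a pair of EF-hand motifs and mostly act as dimers. Inside the cell they change shape when calcium rises and then bind partners such as annexins, and some are released and bind surface receptors as alarm signals. Most S100 genes lie in the epidermal differentiation complex, a gene cluster that also encodes filaggrin and other proteins of the cornified layer. S100a8 and S100a9 together form calprotectin, which neutrophils carry in large amounts and which KCs make in inflamed or fast-growing epidermis. How the transcripts of these genes differed between KCs kept for 1 and for 3 weeks is the question that this comparison addresses.

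Each sample held between 13896807 and 20026084 reads on exons, of which 81.6% to 84.7% mapped to a single place (unique reads). Levels are given as RPKM, which relate the reads of a gene to its exon length and to the depth of the sample and so can be compared between genes. Changes are log2 fold changes of 3 weeks over 1 week from edgeR, computed from the exon reads after TMM normalization, with p-values adjusted over the 12590 genes that had enough reads. The median change of all tested genes was 0.03 on this scale and -0.16 in log2(RPKM + 0.1), so that RPKM values read slightly lower at 3 weeks than the edgeR scale. Which scale is nearer to the RNA content of the cells was not tested. All 8 KC markers (Krt5, Krt14, Trp63, Itga6, Itgb4, Col17a1, Cdh1 and Dsp) were expressed in every sample. Their summed level lay between 12443 and 14742 RPKM at 1 week and between 7596 and 8878 RPKM at 3 weeks, and most of this sum came from Krt5 and Krt14. Krt5, the keratin of basal KCs, fell by 1.32 (adjusted p = 0.00103) and Itga6, an integrin of basal KCs, fell by 0.75 (adjusted p = 0.0391) on the log2 scale (edgeR). The 6 other KC markers were not called, and 4 of them had positive log2 fold changes.

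Replicate 3 of 3 weeks stood apart from the other 3-week samples by transcript length. Among the 1826 tested genes with an exon length under 2000 bases, its log2 CPM was 0.37 above the mean of the 3-week samples at the median, and among the 5239 genes of 5000 bases or more it was 0.17 below. Replicate 4 of 3 weeks went the other way, with -0.26 and 0.13. The exon lengths of the 10 S100 genes run from 511 to 1727 bases, so all of them are in the short class. Of the short genes, 13.9% were called higher and 16.8% lower, and their median log2 fold change was -0.019. Without replicate 3 of 3 weeks the S100 genes called with all samples had log2 fold changes of 1.20 (S100a1), 1.41 (S100a13), 0.49 (S100a6) and -2.38 (S100a9), with adjusted p-values of 0.00223, 0.00794, 0.0297 and 0.0299 in edgeR. S100a8 was called as well in that fit (-2.04, adjusted p = 0.0396, edgeR), and 38% of all genes tested in it were called. A fit to the genes under 2000 bases alone, added after the data were seen, called S100a1, S100a13, S100a6 and S100a9 but not S100a8. Of all genes tested in that fit 38.7% were called, 19.4% as higher and 19.3% as lower, so that 4 called genes of 10 lie near this share.

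All 10 genes had enough reads to be tested. At an adjusted p-value under 0.05 in the unpaired fit, S100a1, S100a13 and S100a6 rose between 1 and 3 weeks, S100a9 fell, and 6 genes did not pass the test. With the 3 shared preparations as blocks, S100a6 was not called and S100a8 was called lower. Of all tested genes 32.8% were called, 15.7% as higher and 17% as lower, so that 4 called genes of 10 lie near this background. The RPKM values of both times did not overlap for the 3 genes that rose, and overlapped for the other 7. Among all tested genes 37% did not overlap, 10.8% because they were higher and 26.2% because they were lower after 3 weeks. The median change of the 10 genes was 0.25, beside 0.03 for all tested genes. In these bulk samples a lower level can mean fewer cells that use a gene or less RNA in each cell, and these cannot be told apart.

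**Figure D1:**
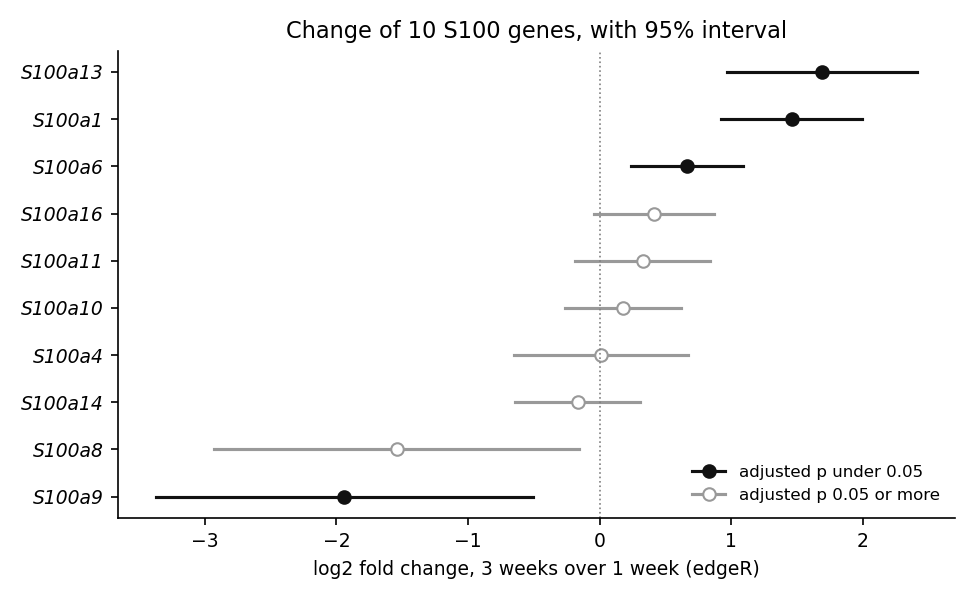
Log2 fold change (3 weeks over 1 week, edgeR) of each of the 10 S100 genes, with its 95% interval as a line. Filled points have an adjusted p-value under 0.05: S100a13 at 1.69, S100a1 at 1.46 and S100a6 at 0.66 lie to the right of 0, and S100a9 at -1.94 lies to the left.

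The S100 genes described here sit on chromosome 3 (GRCm38), next to other S100 genes. A first group of 12 S100 genes, from S100a1 to S100a9, spans chr3:90511034-90695721, and S100a11 and S100a10 follow at chr3:93520488-93564643. The 2825 kb between both groups hold other genes of the epidermal differentiation complex. The sequences next to the starts of the 4 genes that passed the test are shown because they are the DNA just before those genes, where promoters lie. They were taken from the RefSeq promoter table (GRCm38.p6), are printed 5' to 3', and hold no exonic base in GENCODE M21. S100a1 (chr3:90511034-90514392, minus strand) and S100a13 (chr3:90514435-90524581, plus strand) point away from each other, and only the 42 bases of the first line, read on the plus strand, separate them. S100a6 lies at chr3:90612882-90624181 on the plus strand and S100a9 at chr3:90692632-90695721 on the minus strand.
S100a1 to S100a13, chr3:90514393-90514434: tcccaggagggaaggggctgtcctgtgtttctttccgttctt
S100a6 upstream, chr3:90612644-90612881: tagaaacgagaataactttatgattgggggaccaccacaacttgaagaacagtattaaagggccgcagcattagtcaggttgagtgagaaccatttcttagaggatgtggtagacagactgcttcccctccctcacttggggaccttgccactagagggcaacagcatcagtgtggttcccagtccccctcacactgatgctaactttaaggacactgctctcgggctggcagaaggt
S100a9 upstream, chr3:90695722-90695971: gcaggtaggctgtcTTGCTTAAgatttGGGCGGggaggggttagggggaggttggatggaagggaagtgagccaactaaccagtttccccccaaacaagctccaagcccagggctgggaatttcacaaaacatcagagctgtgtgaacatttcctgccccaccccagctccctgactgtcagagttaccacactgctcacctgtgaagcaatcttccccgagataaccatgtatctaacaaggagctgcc

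Capitals mark matches to 4 motifs that were searched on both strands in the 250 bases before each RefSeq start: TATAAA (the TATA box), TGANTCA (AP-1), TTGCNNAA (C/EBP) and GGGCGG (the GC box). Promoters of 8 of the 10 genes were matched by symbol, with 2 starts for S100a16. S100a9 had 1 TTGCNNAA match, 236 bases before its start, and 1 GGGCGG match at 223 bases. A TATAAA begins at the first base of its annotated start and so lay outside the searched bases. TATAAA was found 30 bases before the start of S100a8 and 31 bases before that of S100a4, and in 12.4% of all 32851 promoters. TGANTCA was present before S100a11 (at 38 and 136 bases) and before 1 start of S100a16 (at 192 bases), and in 6.75% of all promoters. TTGCNNAA was present in 9.56% and GGGCGG in 32.7% of all promoters, the latter also before S100a11 and S100a16. The motifs do not overlap each other in S100a9. The searched bases before S100a1, S100a13 and S100a6 held none of the 4.

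S100a11, S100a10, S100a6, S100a14 and S100a16 made up nearly all S100 transcripts of these KCs. At 1 week the mean level was 3088 ± 943 RPKM for S100a11, 1448 ± 143 for S100a10, 1059.7 ± 129 for S100a6, 461 ± 17.5 for S100a14 and 268 ± 31.5 for S100a16 (SD, n = 4). By mean RPKM, S100a11 took place 12 among all listed genes at both times, S100a10 places 20 and 30, and S100a6 places 33 and 28. The level of S100a11 rests on total exon reads, of which only 42.4% to 43.4% were unique, so its place is less certain. The 5 genes supplied between 98.0% and 99.3% of the exon reads of the 10 genes. Together the 10 genes took 0.566% to 0.659% of all exon reads at 1 week and 0.590% to 0.771% at 3 weeks, and these ranges overlap. S100a8, S100a9, S100a1, S100a4 and S100a13 had means between 10.8 and 43.7 RPKM at 1 week.

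The order of the 5 abundant genes at 1 week was clear of the spread in RPKM from total exon reads. The lowest sample of each lay above the highest sample of the next. For S100a11 most of these reads were not unique, and the order was not examined with unique reads. The 5 others overlapped with their neighbours. At 3 weeks S100a6 (1485 ± 204 RPKM) and S100a10 (1451 ± 245 RPKM; SD, n = 4) overlapped, as did S100a14 and S100a16. S100a1 and S100a13 moved from places 8 and 10 among the 10 genes to places 6 and 7, and S100a9 moved from place 7 to place 10.

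**Figure D2:**
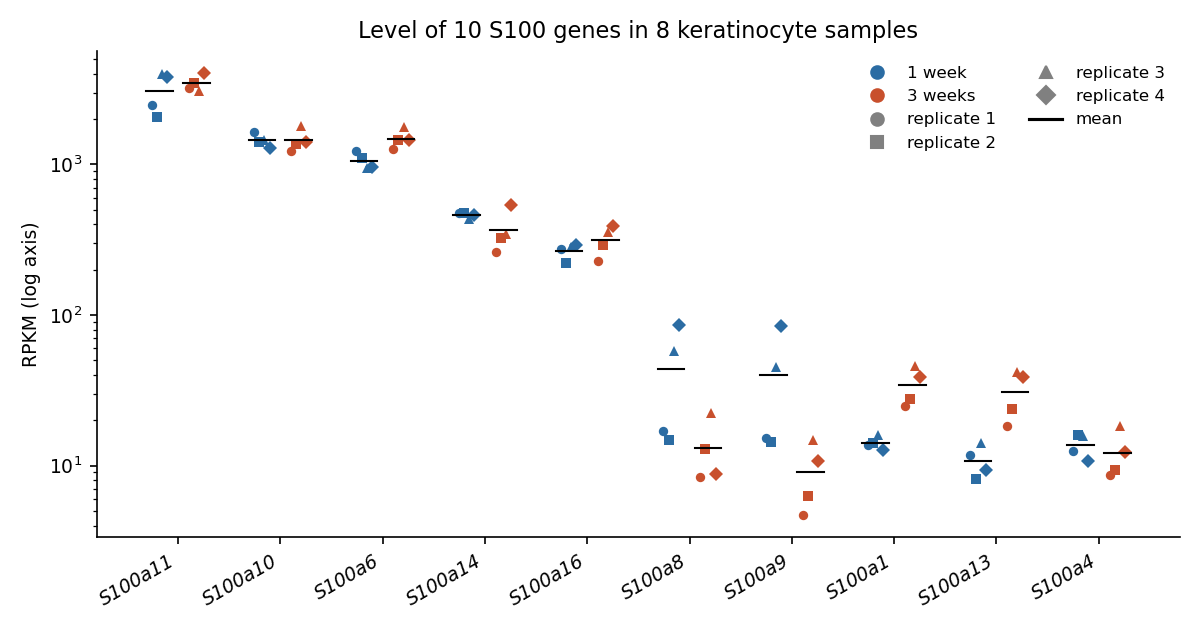
RPKM (log axis) of the 10 S100 genes in the 4 samples of 1 week (blue) and the 4 samples of 3 weeks (red), with 1 symbol per replicate number and a black line at each mean. S100a11, S100a10, S100a6, S100a14 and S100a16 lie above 200 RPKM in every sample, and the other 5 genes below 90 RPKM.

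Of the neighbouring pair S100a1 and S100a13, S100a1 encodes a protein best known as a calcium sensor of heart muscle. It was at 13.8, 14.2, 15.9 and 12.7 RPKM in replicates 1 to 4 at 1 week and at 24.97, 27.8, 45.8 and 38.6 RPKM at 3 weeks. Every 3-week sample lay above every 1-week sample. The mean was 14.1 ± 1.30 RPKM (SD, n = 4) before and 34.3 ± 9.65 RPKM after, and edgeR gave a rise of 1.46 on the log2 scale (standard error 0.24, 95% interval 0.92 to 1.99, adjusted p = 0.00211). The counts behind these values were 156 to 522 reads per sample, all of them unique.

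S100a13 takes part in the release of FGF1 and interleukin 1α, which have no signal peptide. It was at 11.7, 8.15, 14.03 and 9.36 RPKM at 1 week and at 18.2, 23.9, 42.0 and 38.5 RPKM at 3 weeks. These groups did not overlap either. Means were 10.8 ± 2.60 and 30.6 ± 11.4 RPKM (SD, n = 4), and the rise in edgeR was 1.69 on the log2 scale (standard error 0.32, 95% interval 0.96 to 2.41, adjusted p = 0.00432). Both genes stayed past the threshold under all 20 other settings, between 1.16 and 1.598 for S100a1 and between 1.22 and 1.88 for S100a13 on the log2 scale.

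S100a1 and S100a13 were each other's closest member in the profile over the 8 samples. The ratio of S100a13 to S100a1 in RPKM was 0.848, 0.574, 0.885 and 0.734 at 1 week and 0.730, 0.860, 0.917 and 0.998 at 3 weeks. It overlapped between both times and was below 1 in every sample. Within the 3 shared preparations, S100a1 was 1.81, 1.75 and 3.03 times and S100a13 1.56, 1.70 and 4.11 times as high at 3 weeks as at 1 week in preparations 46, 49 and 90.

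S100a6 encodes calcyclin, which is abundant in dividing epithelial cells. It was at 1223, 1103, 946 and 967 RPKM in replicates 1 to 4 at 1 week and at 1265, 1462, 1759 and 1455 RPKM at 3 weeks. The lowest 3-week sample was just above the highest 1-week sample. In edgeR S100a6 rose by 0.66 on the log2 scale (standard error 0.19, 95% interval 0.24 to 1.09, adjusted p = 0.0258). The call held in 12 of 20 other settings. It was lost without 1 week replicate 2 (0.67, adjusted p = 0.0613), replicate 3 (0.60, adjusted p = 0.0752) or replicate 4 (0.62, adjusted p = 0.0768) and without 3 weeks replicate 2 (0.69, adjusted p = 0.0528). It was also lost in limma on log2(RPKM + 0.1) (0.48, adjusted p = 0.0691) or log2(RPKM + 1) (0.48, adjusted p = 0.0701). The same held in edgeR with the replicate number (0.65, adjusted p = 0.0950) or the shared preparations (0.50, adjusted p = 0.152) as blocks.

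S100a8 and S100a9, the genes of calprotectin, showed the widest spread of RPKM between samples. S100a8 was at 17.0, 14.7, 57.5 and 85.7 RPKM in replicates 1 to 4 at 1 week and at 8.43, 12.9, 22.2 and 8.73 RPKM at 3 weeks. S100a9 was at 15.2, 14.4, 45.4 and 84.4 RPKM at 1 week and at 4.73, 6.29, 14.7 and 10.7 RPKM at 3 weeks. For both genes, replicates 3 and 4 of 1 week stood high, replicates 1 and 2 of 1 week were lower, and replicate 3 of 3 weeks passed the lowest 1-week sample. The coefficients of variation at 1 week were 78.3% for S100a8 and 82.8% for S100a9, beside 3.795% to 30.5% for the 8 other genes.

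S100a9 averaged 39.8 ± 33.0 RPKM (SD, n = 4) before and 9.10 ± 4.503 RPKM after, and edgeR put its change at -1.94 on the log2 scale (standard error 0.63, 95% interval -3.37 to -0.51, adjusted p = 0.0431). The call held in 15 of 20 other settings. It was lost without 1 week replicate 3 (-1.88, adjusted p = 0.0847) or replicate 4 (-1.26, adjusted p = 0.127), and without 3 weeks replicate 1 (-1.71, adjusted p = 0.104), replicate 2 (-1.78, adjusted p = 0.105) or replicate 4 (-1.99, adjusted p = 0.0658). S100a8 averaged 43.7 ± 34.2 RPKM (SD, n = 4) before and 13.1 ± 6.42 RPKM after. Its log2 fold change of -1.54 (standard error 0.61, 95% interval -2.93 to -0.16) missed the threshold with an adjusted p of 0.0836 in edgeR. S100a8 passed in DESeq2 (adjusted p = 0.0238, where 19.5% of all tested genes were called lower), without 1 week replicate 2 (-1.84, adjusted p = 0.0465) and without 3 weeks replicate 3 (-2.04, adjusted p = 0.0396), while without 1 week replicate 4 its log2 fold change was -0.98 (adjusted p = 0.241).

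Within preparations 46, 49 and 90, S100a8 was 2.01, 4.46 and 9.81 times and S100a9 3.21, 7.21 and 7.89 times as high at 1 week as at 3 weeks. Both genes were thus lower at 3 weeks in each of the 3 shared preparations. With these preparations as blocks, S100a8 also passed the threshold (-2.08, adjusted p = 0.0197, edgeR).

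The ratio of S100a9 to S100a8 in RPKM was 0.896, 0.981, 0.789 and 0.985 at 1 week and 0.561, 0.488, 0.662 and 1.22 at 3 weeks. At 1 week S100a8 was slightly above S100a9 in all 4 samples, and at 3 weeks it was above in 3 of them.

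**Figure D3:**
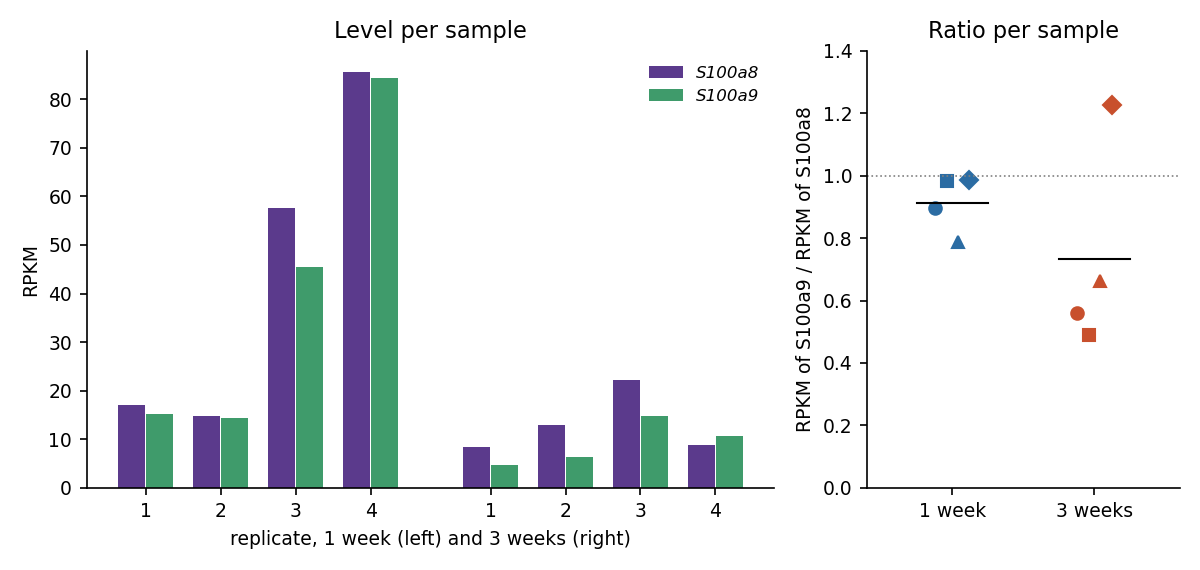
Left, RPKM of S100a8 and S100a9 in each of the 8 samples, as bars from 0. Right, the ratio of S100a9 to S100a8 in each sample (symbols as replicate numbers 1 to 4: circle, square, triangle, diamond), with the mean as a line and a ratio of 1 dotted. Replicates 3 and 4 of 1 week reach 57.5 and 85.7 RPKM for S100a8, and no other sample is above 22.2 RPKM.

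Since neutrophils are rich in calprotectin, their markers were read in the same samples. Mpo, Elane, Camp and Ngp, which define neutrophils and their granules, had no read in any sample, and all 7 neutrophil markers together summed to between 0.0538 and 0.335 RPKM at 1 week and between 0.0169 and 0.135 RPKM at 3 weeks. The 7 markers of macrophages and dendritic cells summed to 16.1 to 21.0 RPKM at 1 week and 9.27 to 14.2 RPKM at 3 weeks, mostly from Cd68, which fell by 0.89 on the log2 scale (adjusted p = 0.0180, edgeR). The 3 other tested markers of this list had positive log2 fold changes and were not called, and Cd207 of Langerhans cells had no read. The 4 T cell markers did not exceed 0.107 RPKM in sum, the 4 endothelial markers did not exceed 0.559 RPKM, and the 6 fibroblast markers lay between 2.30 and 4.65 RPKM. The 5 melanocyte markers (Mlana, Dct, Tyr, Pmel and Tyrp1) summed to 4.76, 3.18, 15.4 and 20.9 RPKM at 1 week and to 1.26, 5.50, 3.09 and 3.10 RPKM at 3 weeks. They too were high in replicates 3 and 4 of 1 week. Of the 4 melanocyte markers with enough reads, Pmel was called lower at 3 weeks, and the part of these cells in the values of S100a8 and S100a9 was not tested.

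S100a10 and S100a11 encode annexin partners. S100a10, which binds annexin A2 at the plasma membrane, was at 1639, 1413, 1445 and 1294 RPKM at 1 week and at 1231, 1369, 1800.3 and 1405 RPKM at 3 weeks. The samples of both times lay in 1 range. Its change in edgeR was 0.18 on the log2 scale (standard error 0.20, 95% interval -0.26 to 0.62, adjusted p = 0.513). That of Anxa2 was 0.066 (adjusted p = 0.758), and the ratio of S100a10 to Anxa2 in RPKM lay between 2.02 and 2.29 at 1 week and between 1.92 and 3.14 at 3 weeks.

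S100a11, which binds annexin A1, was at 2495, 2079, 3973 and 3806 RPKM at 1 week and at 3239.9, 3488, 3088 and 4056 RPKM at 3 weeks. Replicates 1 and 2 of 1 week were the lowest of the 8 samples. Its log2 fold change was 0.33 (standard error 0.23, 95% interval -0.19 to 0.84, adjusted p = 0.302, edgeR). Only 42.4% to 43.4% of its reads were unique, and 181 of the 453 stretches of 59 bases in its transcripts also occur in transcripts of the processed pseudogenes Gm12854, Gm7665 or Gm29240, which were not analysed here. With unique reads alone its log2 fold change was 0.30.

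Anxa1 rose from 1435 ± 208 to 3163 ± 1018 RPKM (SD, n = 4; log2 fold change 1.30, adjusted p = 0.00441, edgeR). The ratio of S100a11 to Anxa1 in RPKM was 1.499, 1.402, 2.78 and 3.28 at 1 week and 1.33, 1.30, 1.07 and 0.869 at 3 weeks. The ratio was thus lower in every 3-week sample than in every 1-week sample, and no test was made of it.

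S100a14, which is found mainly in epithelia, and S100a16 did not pass the test. S100a14 was at 474, 472, 436 and 462 RPKM at 1 week and at 261, 326, 344 and 539 RPKM at 3 weeks. The 1-week samples lay close together, with a coefficient of variation of 3.795%, and the 3-week samples lay on both sides of them, with a coefficient of 32.6%. Its log2 fold change was -0.17 (standard error 0.21, 95% interval -0.64 to 0.31, adjusted p = 0.575, edgeR). S100a16 was at 273, 222, 282 and 293 RPKM at 1 week and at 228, 292, 358 and 390.0 RPKM at 3 weeks. Replicates 3 and 4 of 3 weeks lay above all 1-week samples, while replicates 1 and 2 of 3 weeks lay among them. edgeR gave 0.41 on the log2 scale (standard error 0.20, 95% interval -0.041 to 0.87, adjusted p = 0.147).

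S100a4, known as metastasin and as a partner of non-muscle myosin, was at 12.6, 15.96, 15.6 and 10.8 RPKM at 1 week and at 8.64, 9.38, 18.2 and 12.4 RPKM at 3 weeks. The values of both times were mixed. Its log2 fold change was 0.013 (standard error 0.29, 95% interval -0.65 to 0.67, adjusted p = 0.980, edgeR). Only 30% to 38.7% of its 90 to 192 reads per sample were unique. Of the 525 stretches of 59 bases in its transcripts, 244 also occur in Gm42674, which overlaps S100a4 on the same strand and was given at most 16 reads in a sample.

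The 3-week samples differed from each other in the same way for most of the 10 genes. Replicate 3 had the highest RPKM of the 3-week samples for 7 of the 10 genes, namely S100a1, S100a4, S100a6, S100a8, S100a9, S100a10 and S100a13, and replicate 4 was the highest for the other 3. Replicate 1 had the lowest value for 9 of the 10 genes, all but S100a11. Over all tested genes under 2000 bases, replicate 3 was the highest of the 3-week samples for 52.1% and replicate 1 was the lowest for 29.8%, and over all tested genes the shares were 24.7% and 17.4%. The part of transcript length in the order of these samples was not tested. At 1 week no replicate was the highest for more than 3 of the 10 genes, and replicate 2 was the lowest for 5 of them.

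**Figure D4:**
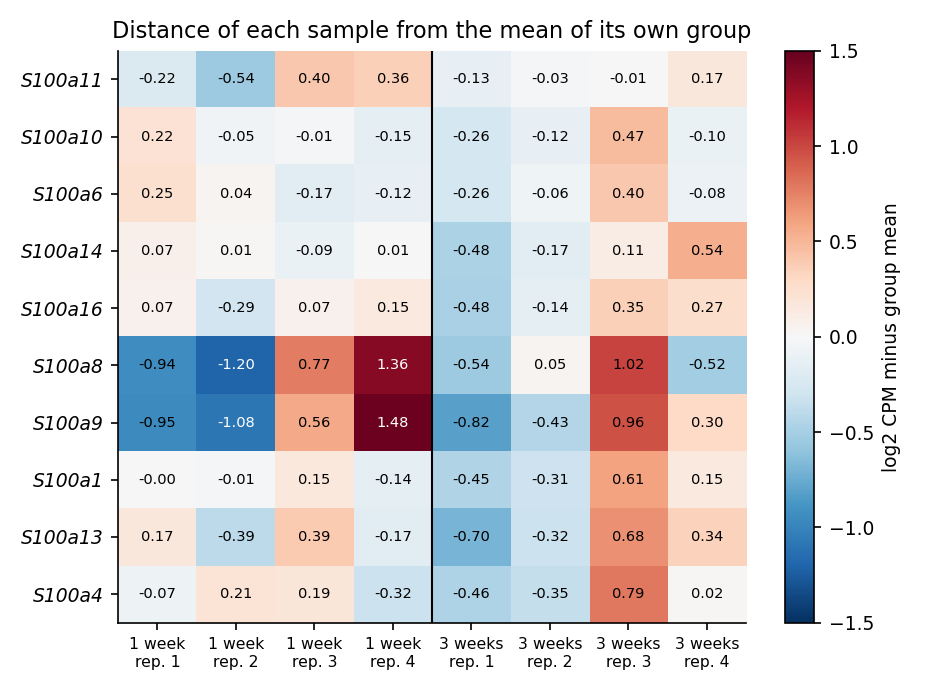
Log2 CPM of each of the 10 S100 genes (rows) in each sample (columns) minus the mean of the 4 samples of the same time. Red cells are above and blue cells below the group mean. S100a8 and S100a9 reach 1.36 and 1.48 in replicate 4 of 1 week, and 9 of the 10 genes are above their group mean in replicate 3 of 3 weeks, S100a11 at -0.011 being the exception.

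Other genes of similar profile were sought among the 8587 genes that averaged 10 CPM or more. The measure was the root mean square difference between log2 CPM profiles over the 8 samples, each centred on its own mean. For S100a9 the nearest genes were Cysrt1 (0.407), Sprr1b (0.433), Fabp5 (0.433), Cxcl3 (0.440) and Elovl4 (0.447), at about the distance of S100a8 (0.411). For S100a8 they were Sprr1b (0.454), Krt16 (0.455), Fen1 (0.535), Rpa2 (0.551) and Fabp5 (0.555). Sprr1b encodes a precursor of the cornified envelope and Krt16 a keratin of stressed and fast-growing epidermis. Fabp5 encodes the fatty acid binding protein of the epidermis and Fen1 and Rpa2 encode proteins of DNA replication. The nearest gene was Arl6ip5 for S100a1 (0.153), Tspan6 for S100a13 (0.245), Rab11a for S100a6 (0.0487), Atpif1 for S100a10 (0.0639), Slc27a4 for S100a11 (0.0969), Cept1 for S100a14 (0.0991), Cd24a for S100a16 (0.105) and Lyplal1 for S100a4 (0.212). S100a1 and S100a13 differed by 0.231.

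Of 9 other S100 genes, 7 were listed. S100a5 had no read in any sample, and S100a2, S100b, S100g and S100z had at most 6 reads per sample. The remaining pair, named here after their values were seen, had enough reads, and edgeR called neither. S100a7a, the mouse relative of psoriasin, had means of 6.22 ± 2.81 and 5.84 ± 1.99 RPKM (SD, n = 4; adjusted p = 0.906, edgeR), and S100a3, known from the hair cuticle, had 0.579 ± 0.234 and 1.05 ± 0.336 RPKM (adjusted p = 0.0580, edgeR). S100a3 had an unadjusted p under 0.05 in edgeR and was called higher in DESeq2 but not in limma on log2(RPKM + 0.1). Only 192 of its 623 reads were unique. Among the 7 fused-type genes, whose proteins begin with an S100 domain, 4 had enough reads and 1 was called lower, beside 17% of all tested genes. This was Rptn (log2 fold change -4.16, adjusted p = 0.0375, edgeR), with 17 unique reads among its 1017 reads. DESeq2 called 2 of the 4 lower (Rptn and Crnn), and limma on log2(RPKM + 0.1) called 0, with 2 of them under an unadjusted p of 0.05 in edgeR.

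Receptors and surface proteins that bind S100 proteins were read from a list of 10 genes. Of the 8 with enough reads, 4 were higher and none was lower after 3 weeks, beside 15.7% and 17% of all tested genes. None was lower at an unadjusted p under 0.05 in edgeR either, nor in DESeq2 or in limma on log2(RPKM + 0.1). Mcam, a receptor for S100A8/A9, rose from 5.57 ± 3.74 to 43.3 ± 17.5 RPKM (SD, n = 4; log2 fold change 3.12, adjusted p = 0.00207, edgeR). Nptn, a receptor for S100A8, rose from 17.0 ± 1.75 to 30.6 ± 3.05 RPKM (1.01, adjusted p = 0.000447), and Bsg, a receptor for S100A9, rose from 255 ± 18.5 to 361 ± 51.5 RPKM (0.67, adjusted p = 0.0116). Ly96, the co-receptor of TLR4, rose by 0.71 on the log2 scale (adjusted p = 0.0343, edgeR), whereas Tlr4 itself was at 1.86 ± 0.280 and 1.90 ± 0.754 RPKM (SD, n = 4) and was not called. Ager, which encodes the receptor RAGE, had 5 reads in all 8 samples together.

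Among 13 genes for binding partners and cargo of S100 proteins, 12 had enough reads, 5 were higher and 2 were lower, beside 15.7% and 17% of all tested genes. Besides Anxa1, the higher genes were Anxa6 (log2 fold change 0.93, adjusted p = 0.0129), Plau (1.19, adjusted p = 0.00364) and Plat (1.91, adjusted p = 0.0320), which encode another annexin and the plasminogen activators of the urokinase and tissue types, and Fgf1 (3.63, adjusted p = 0.00624), which had only 13 unique reads among 420. Fgf1 was not called in DESeq2, and Plat was not called in limma on log2(RPKM + 0.1). Il1a, the cytokine whose release S100A13 aids, fell from 159 ± 31.8 to 39.0 ± 4.38 RPKM (SD, n = 4; log2 fold change -1.86, adjusted p = 0.000293, edgeR), with 5150 unique reads among 27982. Cacybp, the calcyclin-binding protein, fell by 0.60 on the log2 scale (adjusted p = 0.0150, edgeR).

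**Figure D5:**
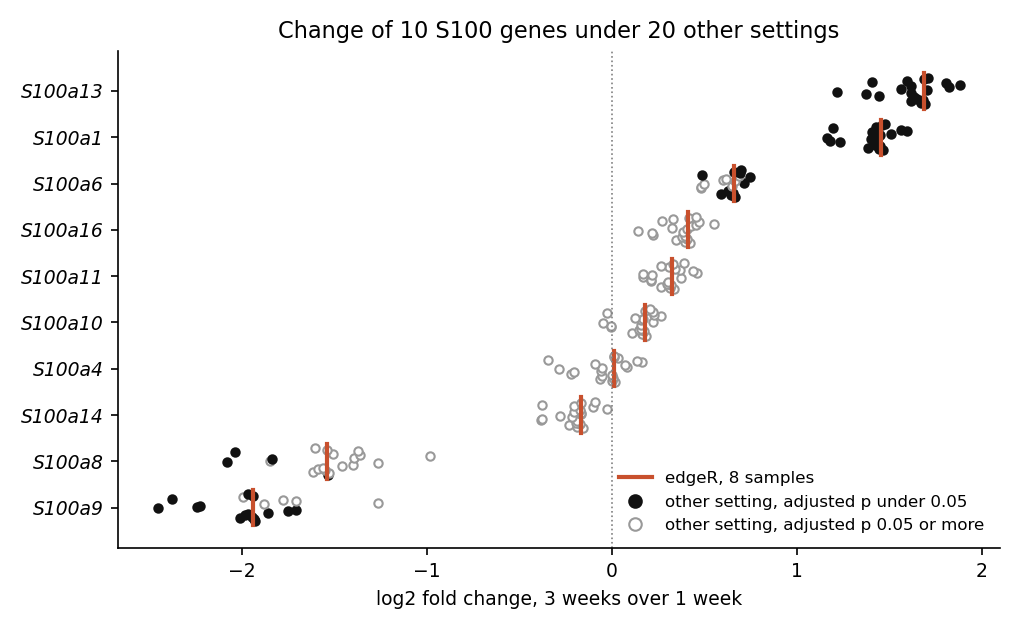
Log2 fold change of each S100 gene in edgeR with all 8 samples (red bar) and under 20 other settings (points, filled where the adjusted p-value was under 0.05). S100a1 and S100a13 stay filled throughout, S100a9 ranges from -2.45 to -1.26, and S100a4 and S100a10 lie on both sides of 0.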

How the data were processed

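The authors trimmed reads of poly(A) libraries, mapped them to GRCm38 with the CLC Genomics Workbench, and deposited for each sample whole-number counts of reads per gene (total and unique exon reads, total gene and intron reads, without normalization) and RPKM values. Use of the strand in counting is not given in the sources used here. Total exon reads were tested here with edgeR 4.0.16 in R 4.3.3 (filterByExpr, TMM, quasi-likelihood test, Benjamini-Hochberg adjustment over 12590 genes, threshold 0.05) without pairing, as the study used unpaired tests. The paper nevertheless describes the same batches of KCs at both times, so this fit leaves a partial pairing unused. Fits with blocks are given below. All 8 samples entered the fit. Total exon reads per sample ranged from 13896807 to 20026084. In counts simulated for 12455 genes, the procedure recovered 86.7% of 4-fold and 43.8% of 2-fold changes, with 3 false calls. Only 200 of these genes were changed, and each gene was drawn independently. In the data 32.8% of tested genes were called and samples differed by transcript length, so these values need not carry over. No pair of replicates agreed within sampling noise (smallest chi-square per degree of freedom 15.5).

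The other settings were DESeq2 1.42.0, upper-quartile normalization, no filter, at least 10 reads in every sample, unique exon reads, total gene reads, limma 3.58.1 on log2(RPKM + 0.1) and log2(RPKM + 1), the replicate number as a block, the 3 shared preparations as blocks (by the number in the table names), each sample left out in turn, a fit without the 20 genes of highest count in each sample and, added after the data were seen, a fit to genes with an exon length under 2000 bases. Likeness was measured on edgeR log2 CPM with a prior count of 2. Of the listed gene IDs, 41434 of 41457 were found in GENCODE M21 (GRCm38), whose transcripts gave the stretches of 59 bases. The 10 genes and all gene lists were chosen with earlier results of these data known. All 10 genes are named, genes of the other lists where they were called or were defining markers at or near 0. Python 3.11.15, pandas 2.3.3 and matplotlib 3.10.9 were used.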

Additional observations from a re-analysis of the deposited data

How the results depend on the processing

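Under 20 other settings, S100a1 and S100a13 kept their call, and S100a11, S100a14 and S100a16 stayed without one in the same direction. The number of S100 genes called lower, 1 in the comparison reported, was 2 in DESeq2 and 2 in the shared preparations, and 0 to 2 with single samples omitted. Of all tested genes, 19.5% were called lower in DESeq2, 14.2% in the shared preparations and 12.7% to 20.8% with single samples omitted. The number called higher was 2 or 3 throughout. Of all tested genes, 7.86% were called higher without a filter and 19.4% in the fit to genes under 2000 bases. S100a4 changed sign without a filter (-0.061), with unique reads (-0.051), with total gene reads (-0.00071), in limma on log2(RPKM + 0.1) (-0.22) and log2(RPKM + 1) (-0.20), under the replicate block (-0.057) and in the shared preparations (-0.28), and lay between -0.35 and 0.16 with single samples omitted. S100a10 changed sign in limma (-0.0056 with either pseudocount), in the shared preparations (-0.046) and without 3 weeks replicate 3, with -0.025 to 0.27 over the left-out samples. No value of S100a4 or S100a10 passed the test, and the cause of the change in sign was not tested. The median change of the 10 genes lay between 0.048 and 0.32. Over all genes, limma on log2(RPKM + 0.1) called 1313 higher and 3089 lower, where edgeR called 1981 and 2146. The fit to genes under 2000 bases called 709 of the 1832 that passed the filter applied to them alone, since fewer genes were tested.

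Samples with the same replicate number did not deviate together (correlations of -0.23, -0.15, -0.15 and 0.25), so that the numbers were not taken as pairs. With them as a block, 2867 genes were called in place of 4127, S100a6 missed the threshold (0.65, adjusted p = 0.0950, edgeR), and no other S100 call changed. Not every sample correlated best with its own number. Samples that share a preparation number had correlations of -0.23, 0.20 and 0.25. With these 3 preparations as blocks, S100a6 missed the threshold (0.50, adjusted p = 0.152), S100a8 passed it (-2.08, adjusted p = 0.0197) and S100a9 stayed called (-2.45, adjusted p = 0.00610, edgeR). Of 2-fold changes only a part was recovered in simulated counts (43.8%), so a gene without a call may have changed.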

Other observations

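Between the S100 genes of chromosome 3, 51 other genes start within 1 Mb of one of the 10 genes, among them genes for proteins of the cornified envelope. Of these, 10 had no read and 15 had enough reads to be tested. None of the 15 was called higher and 4 were called lower after 3 weeks (edgeR), beside 15.7% and 17% of all tested genes. The median log2 fold change of the 15 was -1.17, beside 0.03 for all tested genes. At an unadjusted p under 0.05 in edgeR 1 was higher and 5 were lower, DESeq2 also called 1 higher and 5 lower, and limma on log2(RPKM + 0.1) called 0 higher and 2 lower. Lce3c, which encodes a late cornified envelope protein, averaged 18.5 RPKM before and 0.611 RPKM after (log2 fold change -4.72, adjusted p = 0.0132). The others were Lce3f (-3.16, adjusted p = 0.0319), 2310046K23Rik (-5.57, adjusted p = 0.0115) and Rptn (-4.16, adjusted p = 0.0375). Their 1-week samples also spread widely, from 2.49 to 48.2, 1.55 to 60.5 and 0.117 to 9.19 RPKM. Lce3c and 2310046K23Rik did not overlap between the groups, and Lce3f and Rptn did. Flg, the filaggrin gene, had between 1 and 376 reads per sample, too few to be tested.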
